A study of Homo sapiens with 8 samples.

Results

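Wnt ligands, their secreted antagonists and linked pathway genes were followed in MCF10A and DCIS.COM breast cells with and without overexpression of the lncRNA *MALINC1*. The list held 10 genes, which were looked up by symbol: the ligands *WNT5A*, *WNT5B*, *WNT7A*, *WNT7B* and *WNT10A*, the antagonists *DKK1*, *DKK3* and *SFRP1*, the feedback inhibitor *AXIN2* and the transcription factor *TCF7L1*. Of these, 6 were measured among the 13842 genes of the expression table: *WNT5A*, *WNT7A*, *WNT7B*, *DKK1*, *SFRP1* and *TCF7L1*. The other 4, *WNT5B*, *WNT10A*, *DKK3* and *AXIN2*, were not analysed here.

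RNA-seq profiles came from 8 libraries in 4 groups of 2: MCF10A pLOC-empty, MCF10A pLOC-*MALINC1*, DCIS.COM pLOC-empty and DCIS.COM pLOC-*MALINC1*. MCF10A is an immortalized, non-tumorigenic line of breast epithelium, and DCIS.COM is a line of the MCF10 series that forms lesions resembling ductal carcinoma in situ (DCIS). pLOC is a lentiviral expression vector, and all 4 groups were stably transduced, selected with blasticidin and harvested as subconfluent plates. MCF10A medium contained epidermal growth factor, hydrocortisone, insulin, cholera toxin and horse serum, while horse serum is the only supplement given for DCIS.COM, so the line and its medium cannot be told apart. No source used here says that the 2 libraries of a group came from separate cultures or transductions. A p-value therefore rests on the spread between libraries of a group, pooled over the 4 groups and moderated by that of other genes. It does not measure a spread known to lie between cultures or transductions.

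Wnt ligands are secreted lipid-modified glycoproteins that bind Frizzled receptors. In the canonical branch, the co-receptors LRP5 and LRP6 take part and beta-catenin is stabilized, which then acts with TCF/LEF factors on target genes, while non-canonical branches act through other receptors on cell polarity and movement. DKK1 blocks the LRP co-receptors, SFRP1 binds ligands outside the cell, and in breast epithelium Wnt signaling is known for its part in basal and stem cell maintenance.

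Reads counted on genes ranged from 20604377 to 37550457 per library. Levels are read counts scaled to library size (CPM). *MALINC1* itself was 1.25 ± 0.357 CPM in MCF10A pLOC-empty and 12.5 ± 1.05 in MCF10A pLOC-*MALINC1*, and 1.25 ± 0.146 and 21.8 ± 3.76 in the DCIS.COM groups (mean ± SD, n = 2). Its exons overlap those of the protein-coding gene *PURA* on the other strand. As the strand setting of the counting is not given, reads of *MALINC1* and *PURA* cannot be told apart there. All 8 basal breast epithelial markers were measured, and their sum was 27445 to 27494 CPM in MCF10A pLOC-empty, 35916 to 37089 in MCF10A pLOC-*MALINC1*, 4107 to 4136 in DCIS.COM pLOC-empty and 4593 to 4606 in DCIS.COM pLOC-*MALINC1*. This sum moved with the cell line and with *MALINC1*, and its part in the Wnt gene values was not tested. The 4 pan-epithelial markers summed to 1962 to 2060 CPM in MCF10A pLOC-empty and 2292 to 2443 in MCF10A pLOC-*MALINC1*. The sum was 3903 to 3967 CPM in DCIS.COM pLOC-empty and 3804 to 3907 in DCIS.COM pLOC-*MALINC1*. It moved with the cell line, and its part in the Wnt gene values was not tested. Of the 4 luminal hormone-responsive markers, 3 were measured: *ESR1* at 1.72 to 3.84 CPM, *GATA3* at 5.97 to 9.85 and *FOXA1* at 8.59 to 35.1. Their sum was 17.0 to 18.6 CPM in MCF10A pLOC-empty and 23.7 to 25.4 in MCF10A pLOC-*MALINC1*. It was 32.8 to 37.1 CPM in DCIS.COM pLOC-empty and 43.1 to 48.8 in DCIS.COM pLOC-*MALINC1*, and its part in the Wnt gene values was not tested. Reads on the 7SL RNA genes *RN7SL1* and *RN7SL2* made up 8.22% to 15.7% of a library.

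A gene was called a differentially expressed gene (DEG) at an adjusted p-value under 0.01 and a change over 2-fold, by limma on log2 CPM with Benjamini-Hochberg adjustment over all 13842 genes. In MCF10A, 2 of the 6 genes were DEGs, *WNT7A* upward and *WNT5A* downward, against 5.5% of all genes. At any fold, 4 of the 6 passed the p threshold, against 39.6% of all genes. In DCIS.COM, 2 of the 6 were DEGs, *WNT7A* and *WNT5A*, both downward, against 4.53% of all genes. At any fold, 3 of the 6 passed, against 33.2%. The genes were listed with earlier results of these data known, so these shares beside all genes are a description, not a test. The median log2 fold change was 0.012 over the 5 genes above the floor of 3 reads in MCF10A and 0.26 over all 6 in DCIS.COM, where all genes centred near 0 in MCF10A and had a median of 0.0089 in DCIS.COM.

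*WNT7A* (chr3:13857755-13921568, minus strand, GRCh37) encodes a Wnt ligand that acts through canonical and other branches depending on the receptor. In MCF10A pLOC-empty it was 6.10 and 6.38 CPM in the 2 libraries, and in MCF10A pLOC-*MALINC1* it was 18.8 and 19.2 CPM. In DCIS.COM pLOC-empty it was 1.87 and 2.29 CPM, and in DCIS.COM pLOC-*MALINC1* it was 0.379 and 0.650 CPM. Both MCF10A libraries with *MALINC1* were the highest of the 8, both DCIS.COM libraries with *MALINC1* were the lowest, and no groups overlapped.

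*WNT7A* rose by 1.59 ± 0.20 (log2 ± SE) in MCF10A, which is 3.02-fold (limma, adjusted p = 3.44e-05). In DCIS.COM it fell by 1.91 ± 0.20, which is 3.75-fold (adjusted p = 9.32e-06). The difference between the responses, DCIS.COM minus MCF10A, was tested in the same model and was -3.50 ± 0.29 (adjusted p = 9.00e-07). *WNT7A* was the only DEG of the 6 for this difference, against 9.2% of all genes, while 3 of the 6 passed at any fold, against 35.9%. The levels in DCIS.COM pLOC-*MALINC1* rest on 13 and 22 reads. With *RN7SL1* and *RN7SL2* left out, the *WNT7A* responses were 1.55 in MCF10A and -1.88 in DCIS.COM (log2). With 1 CPM added before the logarithm they were 1.46 and -1.03, just over 2-fold in DCIS.COM, and their difference was -2.49. In the same DCIS.COM comparison the endothelial marker *PECAM1* fell from between 6.06 and 7.21 CPM to between 0.0874 and 0.177 CPM, and the leukocyte marker *CD68* rose from between 3.53 and 3.59 CPM to between 6.95 and 7.05 CPM (limma, adjusted p = 1.13e-08 and 8.21e-06). Each was the only marker of its list among the tested genes, and their part in the DCIS.COM values of the Wnt genes was not tested.

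*WNT5A* (chr3:55499743-55524567, minus strand, GRCh37) encodes a ligand best known for non-canonical signaling. It was 37.6 CPM in each MCF10A pLOC-empty library, and 13.0 and 12.2 CPM in MCF10A pLOC-*MALINC1*. In DCIS.COM pLOC-empty it was 1.07 and 1.53 CPM, and in DCIS.COM pLOC-*MALINC1* 0.437 and 0.296 CPM. In each line both libraries with *MALINC1* lay below both controls, and every MCF10A library lay above every DCIS.COM library.

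*WNT5A* fell by 1.57 ± 0.19 in MCF10A, or 2.97-fold (adjusted p = 2.00e-05). In DCIS.COM it fell by 1.65 ± 0.19, or 3.13-fold (adjusted p = 1.67e-05). These SEs are equal because the model shares 1 spread per gene over all groups. With each line fitted alone by limma, the adjusted p was 0.000899 in MCF10A and 0.00970 in DCIS.COM. The difference between these responses was -0.07 ± 0.26 with a 95% confidence interval from -0.65 to 0.50 (adjusted p = 0.834), and it turned to 0.76 (adjusted p = 0.000758) when 1 CPM was added before the logarithm. With that offset the DCIS.COM change was -0.75 and under 2-fold, and the 2 DCIS.COM libraries with *MALINC1* held 15 and 10 *WNT5A* reads. *COL1A1*, the only one of the 5 listed fibroblast markers among the tested genes, also fell in MCF10A, from between 15.1 and 15.9 CPM to between 6.61 and 7.38 CPM (adjusted p = 1.31e-05). In DCIS.COM it was 1.91 to 2.005 CPM with the empty vector and 1.51 to 1.60 CPM with *MALINC1*, and its part in the *WNT5A* values was not tested. In bulk libraries, fewer cells of a type and less RNA per cell cannot be told apart.

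*WNT7B* (chr22:46316246-46373042, minus strand, GRCh37) encodes a ligand closely related to WNT7A. It was 7.72 and 8.06 CPM in MCF10A pLOC-empty and 8.78 and 7.22 CPM in MCF10A pLOC-*MALINC1*, so these groups overlapped. The MCF10A difference was 0.01 ± 0.13 (95% confidence interval -0.28 to 0.30, adjusted p = 0.953). In DCIS.COM it was 2.38 and 2.58 CPM with the empty vector and 3.44 and 3.22 CPM with *MALINC1*, and these groups did not overlap. The DCIS.COM difference was 0.42 ± 0.13 (adjusted p = 0.0228) and did not pass the threshold, although with quantile scaling it was 0.55 (adjusted p = 0.00463). The difference between the responses was 0.40 ± 0.19 (adjusted p = 0.0955), and 0.49 with quantile scaling (adjusted p = 0.0424). It was 0.26 without MCF10A pLOC-*MALINC1* replicate 2 and 0.54 without replicate 1 of that group.

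**Figure D1:**
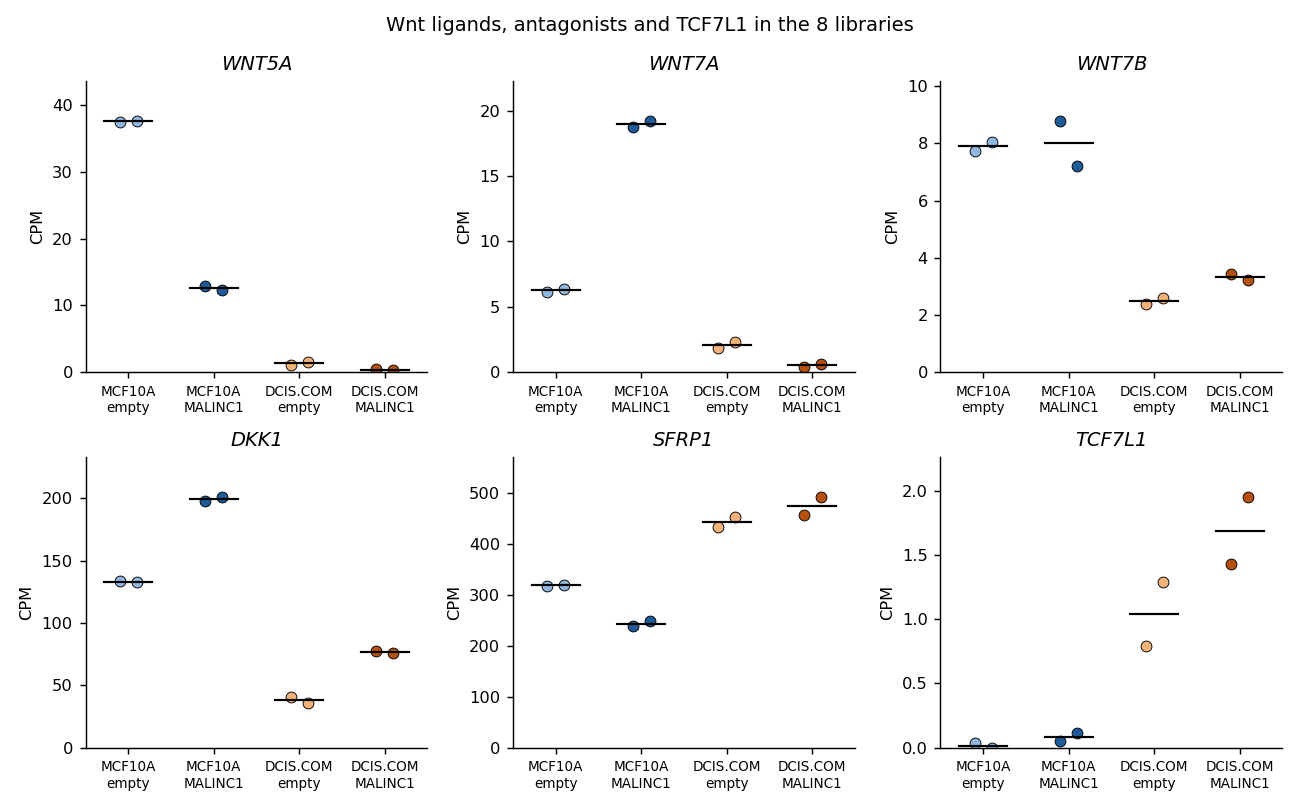
Level of each measured gene in CPM (y axis, from 0, scaled per gene) in the 4 groups (x axis); points are libraries and lines are group means of 2. *WNT7A* is highest in MCF10A with *MALINC1* and lowest in DCIS.COM with *MALINC1*, while *WNT5A* is lower with *MALINC1* in both lines.

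Set on a common scale, in CPM per kb of exon, the 3 ligands summed to 8.12 and 8.26 in MCF10A pLOC-empty and to 7.68 and 7.37 in MCF10A pLOC-*MALINC1*. The sum was 1.03 and 1.23 in DCIS.COM pLOC-empty and 0.821 and 0.819 in DCIS.COM pLOC-*MALINC1*. In MCF10A, *WNT5A* took 64.7% and 63.7% of this sum with the empty vector and 23.6% and 23.2% with *MALINC1*. The share of *WNT7A* was 16.6% and 17.1% with the empty vector and 53.9% and 57.5% with *MALINC1*. In DCIS.COM pLOC-empty the shares of *WNT7B* (45.5% and 41.4%) and *WNT7A* (40.0% and 41.2%) lay close together. In DCIS.COM pLOC-*MALINC1*, *WNT7B* took 82.4% and 77.4% and *WNT7A* 10.2% and 17.5%.

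The ratio of *WNT7A* to *WNT5A* per kb was 0.257 and 0.268 in MCF10A pLOC-empty and 2.29 and 2.48 in MCF10A pLOC-*MALINC1*. In DCIS.COM it was 2.75 and 2.37 with the empty vector and 1.37 and 3.47 with *MALINC1*. The MCF10A groups lay apart in this ratio, and the DCIS.COM groups overlapped.

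**Figure D2:**
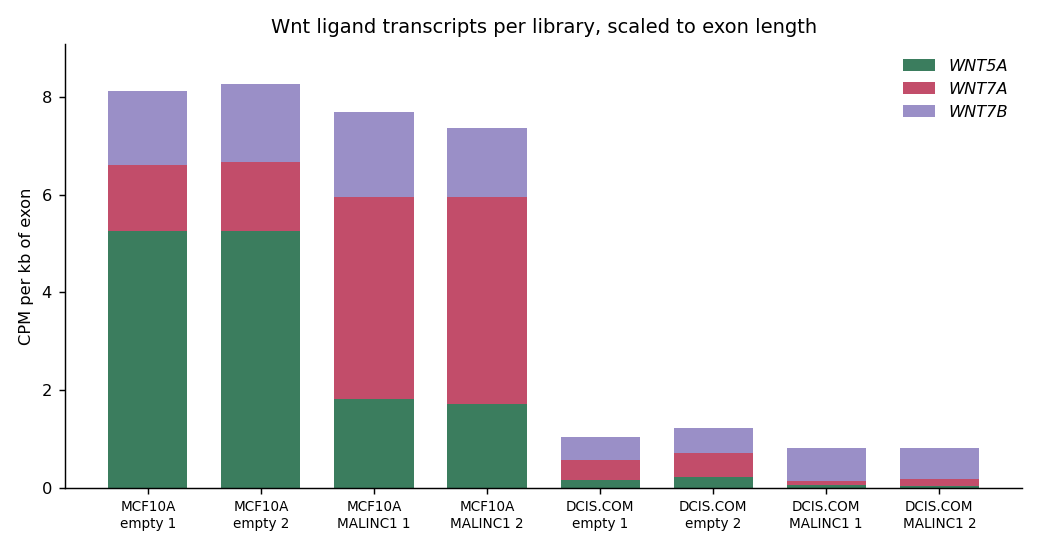
Summed level of *WNT5A*, *WNT7A* and *WNT7B* in CPM per kb of exon (y axis, from 0) in each of the 8 libraries (x axis, line, vector and replicate), with bar segments for the ligands. The MCF10A sums differ little between vectors (8.12 and 8.26 against 7.68 and 7.37), while the *WNT5A* segment shrinks and the *WNT7A* segment grows.

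*DKK1* (chr10:54074041-54077802, plus strand, GRCh37) encodes a secreted antagonist of the canonical branch and is itself a known target of beta-catenin and TCF. Its exons overlap those of the antisense lncRNA *PRKG1-AS1*, and as the strand setting of the counting is not given in the sources used here, reads of these genes cannot be told apart. It was 133 and 132 CPM in MCF10A pLOC-empty and 198 and 201 CPM in MCF10A pLOC-*MALINC1*. DCIS.COM libraries held 40.9 and 36.2 CPM with the empty vector and 77.8 and 76.1 CPM with *MALINC1*. In both lines the *MALINC1* libraries lay above the controls.

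*DKK1* rose by 0.58 ± 0.05 in MCF10A, or 1.499-fold (adjusted p = 1.18e-06), and by 0.998 ± 0.050 in DCIS.COM, or 1.997-fold (adjusted p = 1.23e-08). The DCIS.COM rise lay just under the 2-fold limit and therefore was not a DEG. The rise was larger in DCIS.COM by 0.41 ± 0.07 (adjusted p = 0.000422), which is under 2-fold and so not a DEG. This difference did not pass the p threshold in a fit without the mean-variance trend (adjusted p = 0.0153).

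The 250 bases before the transcription start are shown for *DKK1*, the antagonist that rose in both lines, and for *WNT7A*, the ligand whose response changed direction. Of the 6 genes, 4 had a promoter entry in the RefSeq table (GRCh38.p14). Capitals mark matches to the TCF/LEF core letters CTTTGA and to the TATA letters TATAAA, searched on both strands. The *DKK1* window lies at chr10:52314031-52314280 on the plus strand and overlaps an exon of *PRKG1-AS1*, and the *WNT7A* window lies at chr3:13880072-13880321 on the minus strand.
DKK1: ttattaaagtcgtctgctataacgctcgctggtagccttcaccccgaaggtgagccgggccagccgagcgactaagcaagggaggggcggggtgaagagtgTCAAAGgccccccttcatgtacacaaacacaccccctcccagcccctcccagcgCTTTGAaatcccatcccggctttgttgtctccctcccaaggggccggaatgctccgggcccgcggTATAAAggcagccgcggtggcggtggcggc
WNT7A: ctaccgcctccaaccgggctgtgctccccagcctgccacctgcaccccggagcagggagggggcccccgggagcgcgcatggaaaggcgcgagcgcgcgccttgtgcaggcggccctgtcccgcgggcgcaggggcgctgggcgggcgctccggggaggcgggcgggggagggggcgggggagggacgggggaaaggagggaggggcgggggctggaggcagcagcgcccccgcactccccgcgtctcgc
The *DKK1* window held TCF/LEF core letters 149 bases before the start on the minus strand and 95 bases before it on the plus strand, and the TATA letters 30 bases before it. The *WNT7A* window held none of these and no AP-1 letters TGANTCA. Of 35116 promoter windows of this length, 11.2% held the TCF/LEF letters, 10.7% the TATA letters and 6.57% the AP-1 letters. A match is a description of letters, not of binding.

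*SFRP1* (chr8:41119481-41166992, minus strand, GRCh37) encodes a secreted Frizzled-related protein that binds Wnt ligands. It was 318 CPM in each of the 2 MCF10A pLOC-empty libraries and 239 and 248 CPM in MCF10A pLOC-*MALINC1*. DCIS.COM libraries held 433 and 452 CPM with the empty vector and 456 and 492 CPM with *MALINC1*. The MCF10A groups did not overlap, with *MALINC1* lower, and in DCIS.COM both *MALINC1* libraries lay above both controls.

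*SFRP1* fell by 0.39 ± 0.04 in MCF10A, or 1.31-fold (adjusted p = 5.63e-06). In DCIS.COM the difference was 0.10 ± 0.04 (adjusted p = 0.0596), at 0.15 without pLOC-*MALINC1* replicate 1 and 0.045 without pLOC-*MALINC1* replicate 2, and the responses differed by 0.49 ± 0.06 (adjusted p = 1.77e-05). The ratio of *SFRP1* to *DKK1* per kb was 1.12 and 1.13 in MCF10A pLOC-empty and 0.567 and 0.578 in MCF10A pLOC-*MALINC1*. In DCIS.COM it was 4.96 and 5.86 with the empty vector and 2.75 and 3.03 with *MALINC1*, lower with *MALINC1* in both lines.

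*TCF7L1* (chr2:85360515-85537510, plus strand, GRCh37), also called TCF3, encodes a TCF family factor that mostly acts as a repressor. It held 1 and 0 reads in MCF10A pLOC-empty and 2 and 3 reads in MCF10A pLOC-*MALINC1*, so it was at the floor of 3 reads and no fold is given within MCF10A. The DCIS.COM libraries held 0.793 and 1.29 CPM with the empty vector and 1.43 and 1.95 CPM with *MALINC1*, and the difference of 0.68 ± 0.35 did not pass the threshold (adjusted p = 0.130). It was 0.36 without DCIS.COM pLOC-empty replicate 1. Against 3 reads per MCF10A library, *TCF7L1* was at least 8.81-fold higher in DCIS.COM with the empty vector and at least 17.2-fold higher with *MALINC1*.

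**Figure D3:**
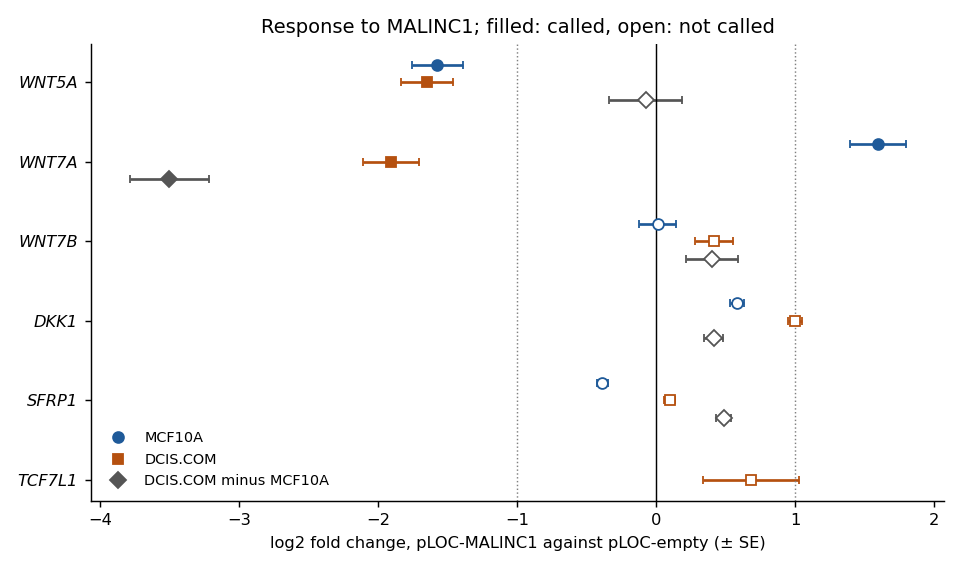
Log2 fold change of pLOC-*MALINC1* against pLOC-empty with its SE (x axis) for each gene (y axis) in MCF10A, in DCIS.COM and as the difference DCIS.COM minus MCF10A; filled marks are DEGs and dotted lines mark 2-fold. *WNT7A* lies at 1.59 in MCF10A and -1.91 in DCIS.COM, *WNT5A* at -1.57 and -1.65, and *TCF7L1* is shown for DCIS.COM only.

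Between the lines with the empty vector, 5 of the 6 genes were DEGs, with *TCF7L1* higher in DCIS.COM and *WNT5A*, *WNT7A*, *WNT7B* and *DKK1* lower, against 28.6% of all genes. All 6 passed at any fold, against 73.9% of all genes. This comparison uses the same control libraries as the responses above. *TCF7L1* was at the floor of 3 reads in MCF10A and met the filter of 0.5 CPM in 2 libraries only through DCIS.COM. Its direction was therefore set in advance, and both counts include it. *WNT5A* was lower in DCIS.COM by 27.9-fold (log2 -4.80 ± 0.19, adjusted p = 9.00e-11). *DKK1* was 3.45-fold lower (adjusted p = 4.27e-12), *WNT7B* was 3.12-fold lower (adjusted p = 1.30e-07) and *WNT7A* was 2.95-fold lower (adjusted p = 1.17e-05). *SFRP1* was 1.39-fold higher in DCIS.COM (adjusted p = 1.64e-07).

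The order of levels per kb also differed between the groups. In MCF10A pLOC-empty, *SFRP1* (67.2 ± 0.135 CPM per kb) and *DKK1* (59.8 ± 0.301) led, followed by *WNT5A* (5.26 ± 0.00830), *WNT7B* (1.55 ± 0.0465) and *WNT7A* (1.38 ± 0.0425). In MCF10A pLOC-*MALINC1*, *DKK1* (89.7 ± 1.09) stood above *SFRP1* (51.4 ± 1.34) and *WNT7A* (4.19 ± 0.0685) above *WNT5A* (1.76 ± 0.0708), while the libraries of *WNT5A* and *WNT7B* (1.57 ± 0.217) overlapped. The order of *DKK1* and *SFRP1* there rests on the exon lengths used. In CPM, *SFRP1* (243 ± 6.35) stood above *DKK1* (199 ± 2.41) in this group. Reads of *DKK1* may also include some of *PRKG1-AS1*. In DCIS.COM pLOC-empty, *SFRP1* (93.5 ± 2.82) and *DKK1* (17.4 ± 1.52) led, the libraries of *WNT7B* (0.488 ± 0.0277) and *WNT7A* (0.459 ± 0.0665) overlapped, and so did those of *TCF7L1* (0.235 ± 0.0792) and *WNT5A* (0.182 ± 0.0450). In DCIS.COM pLOC-*MALINC1* the order was *SFRP1* (100.2 ± 5.26), *DKK1* (34.6 ± 0.565), *WNT7B* (0.655 ± 0.0300), *TCF7L1* (0.381 ± 0.0836), *WNT7A* (0.114 ± 0.0424) and *WNT5A* (0.0512 ± 0.0140), with no overlap between neighbours.

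The wider Wnt pathway was described by a list of 121 other genes in 8 roles, of which 82 were tested. This list too was chosen with earlier results of these data known, so its shares are a description. In MCF10A, 6 of the 82 were upregulated DEGs and 4 downregulated (12.2%, against 5.5% of all genes), and in DCIS.COM 2 were upregulated and 1 downregulated (3.66%, against 4.53%). The median log2 fold change was 0.027 over the 77 above the floor in MCF10A and 0.043 over the 81 above it in DCIS.COM.

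Among receptors, *FZD8*, a Frizzled receptor, rose in both lines, from 8.86 ± 0.625 to 20.9 ± 1.41 CPM in MCF10A (log2 1.23 ± 0.07, adjusted p = 1.87e-08) and from 53.5 ± 2.12 to 108 ± 2.53 CPM in DCIS.COM (1.01 ± 0.07, adjusted p = 1.17e-07). The DCIS.COM rise of *FZD8* lay just over the 2-fold limit. Values of single pathway genes were not recomputed under other settings. *FZD2*, another Frizzled receptor, fell in MCF10A from 5.37 ± 0.232 to 2.16 ± 0.0983 CPM (-1.29 ± 0.13). *KREMEN1*, a receptor for DKK1, rose in MCF10A from 5.78 ± 0.524 to 12.3 ± 0.543 CPM (1.08 ± 0.11). The ligand *WNT10B* rose in MCF10A from 0.982 ± 0.365 to 2.31 ± 0.312 CPM (1.22 ± 0.22).

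Genes commonly named as targets moved both ways in MCF10A. *MYC*, a growth regulator, rose by 1.19 ± 0.05, *JAG1*, a Notch ligand, rose by 1.70 ± 0.03, and *SOX9*, a transcription factor, rose by 1.08 ± 0.05. *ID2*, an inhibitor of bHLH transcription factors, fell by 2.05 ± 0.07, and the matricellular gene *CCN5* fell by 2.92 ± 0.29, from 12.0 ± 0.0319 to 1.55 ± 0.422 CPM. None of these 5 was a DEG in DCIS.COM, where *CCN5* was at the floor. The responses of *ID2* differed between the lines by 2.19 ± 0.10 (adjusted p = 4.32e-09).

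Among nuclear effectors, *TLE2*, a co-repressor of TCF factors, fell by 1.42 ± 0.15 in MCF10A, and its responses differed between the lines by 1.85 ± 0.21 (adjusted p = 1.40e-05). In DCIS.COM, *LEF1* rose from 3.65 ± 0.374 to 8.61 ± 0.110 CPM (1.22 ± 0.30, adjusted p = 0.00580) and *TCF7* fell from 5.47 ± 0.110 to 2.27 ± 0.412 CPM (-1.25 ± 0.23, adjusted p = 0.000823). Both are TCF/LEF factors, and *LEF1* was at the floor in every MCF10A library. For the difference between the responses, 4 of the 82 were called upward and 1 downward (6.1%, against 9.2% of all genes), with *LEF1* and *CCN5* among them resting on a line at the floor.

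**Figure D4:**
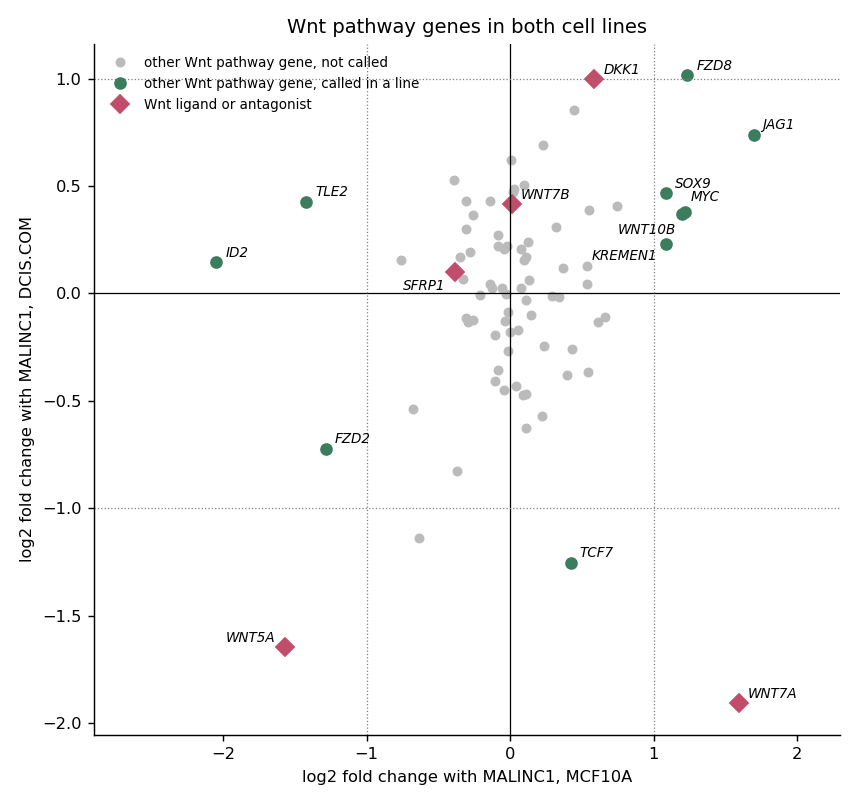
Log2 fold change with *MALINC1* in MCF10A (x axis) and DCIS.COM (y axis) for the Wnt ligands and antagonists (diamonds) and the other tested Wnt pathway genes (circles, green where called in a line); dotted lines mark 2-fold, and 6 pathway genes and *TCF7L1* with groups at the floor are left out. *WNT7A* lies alone at lower right (1.59, -1.91) and *FZD8* at upper right (1.23, 1.01).

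Between the lines with the empty vector, 23 of the 82 pathway genes were called higher in DCIS.COM and 8 lower (37.8%, against 28.6% of all genes). Of the 82, 76 were above the floor in both lines. *GPC4*, *SOSTDC1*, *DAAM2*, *LEF1* and *CCND2* were at the floor in MCF10A and *CCN5* in DCIS.COM. These met the filter only through the other line, so their direction was set in advance. By fitted value the leading rises were those of *CCND2*, a D-type cyclin, at least 694-fold higher, *SOSTDC1*, a secreted Wnt and BMP antagonist, at least 91.6-fold higher, and *GPC4*, a glypican, at least 71.5-fold higher, all against MCF10A libraries at the floor. The leading falls were those of *CCN5*, at least 84.6-fold lower, of the ligand *WNT9A*, from 11.02 ± 0.321 to 2.38 ± 0.595 CPM (log2 -2.20 ± 0.15), and of *PPARD*, a nuclear receptor, from 42.4 ± 1.64 to 11.6 ± 0.811 CPM (-1.87 ± 0.09).

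Over the 8 libraries, the gene closest in profile to each member was found by Euclidean distance of log2 CPM centred on each gene's own mean. The closest gene to *WNT7A* was *MT2A* at a distance of 1.56, with responses of 0.36 in MCF10A and -1.27 in DCIS.COM. For *WNT5A* it was *TGFBI* at 0.933, with responses of -1.04 and -1.41. *WNT7B* lay closest to *PARP12* at 0.184, *DKK1* to *P2RY2* at 0.399, *SFRP1* to *PSIP1* at 0.131 and *TCF7L1* to *CD8A* at 0.728. A distance over libraries that differ mainly by line is a description of shared profile only.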

How the data were processed

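RNA-seq was performed on 8 libraries (4 groups of 2). Per the paper's methods and the submitters' processing notes, the authors sequenced 76 nt paired-end reads, aligned them to hg19 with Rsubread, counted them with featureCounts on UCSC genes and made normalized values with edgeR. The deposited values are log2 CPM. From the values, a prior count of 2 was added before the logarithm, and whole reads were recovered for 100% of values within 0.1 read. CPM are given without that prior, while fold changes are on the deposited log2 scale and understate changes of genes with few reads. No strand setting, low-value filter or version is given in the sources used here.

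A mean for each group was fitted to all 8 libraries by limma (version 3.58.1, under R 4.3.3; lmFit, then eBayes with trend=TRUE). All 4 groups share 1 spread per gene, so a gene has the same SE in both lines. That spread has 4 residual degrees of freedom and is moderated with 7.98 prior degrees of freedom drawn from all genes. The filter on low values (0.5 CPM, without the prior, in 2 libraries) removed no gene, leaving 13842. Tables used pandas 2.3.3 with numpy 2.4.6, figures matplotlib 3.10.9, all under Python 3.11.15. Alternatives covered the scaling, offset, filter, model, each line fitted alone, replicate block, thresholds and each library left out. The steps were tested on simulated data. The floor is 3 reads per library and covers counting error only. Exon lengths are unions of GENCODE exons on GRCh37, not those the authors counted on. Members and gene lists were chosen with earlier results of these data known. The named genes are all members, listed pathway genes called in a response, the 3 largest line differences each way at 5 CPM or more, and the closest profile of each member.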

Additional observations from a re-analysis of the deposited data

Results flagged for a closer look

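The response to *MALINC1* differed between the cell lines for 3 of the Wnt genes, by the limma test of the difference itself (DCIS.COM minus MCF10A, log2, 2 libraries a group). The difference was -3.50 for *WNT7A*, whose libraries moved in opposite directions in the lines. It was 0.41 for *DKK1*, which rose in both lines, with an adjusted p of 0.0153 in a fit without the mean-variance trend, and 0.49 for *SFRP1*, which fell in MCF10A.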

How the results depend on the processing

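In some settings the log2 fold changes of the Wnt genes could not move. These included the filters, the replicate block, the fit without the mean-variance trend, each line fitted alone, and a left-out library outside the comparison. At most the adjusted p could change there, so the count of unchanged values partly reflects the settings chosen. Of 431 recomputed values of the Wnt genes, 418 kept their direction and side of the threshold (adjusted p and 2-fold together), 1 no longer passed, 5 newly passed and 7 changed sign. Those that changed sign were the near-zero *WNT5A* difference between the responses, at 0.49 with 0.5 CPM added, 0.76 with 1 CPM added and between -0.32 and 0.17 on leaving out a library, and the *WNT7B* response in MCF10A, at -0.027 without *RN7SL1* and *RN7SL2* and between -0.13 and 0.15 on leaving out a library. With 1 CPM added, *WNT7A* in DCIS.COM was -1.03 and its difference between the responses -2.49, *WNT5A* in DCIS.COM was -0.75, 1 of the Wnt genes was called in DCIS.COM, and 368 and 416 of all genes were called in DCIS.COM and MCF10A, against 627 and 761. *DKK1* in DCIS.COM passed 2-fold under median centring (1.01), quantile scaling (1.02), without *RN7SL1* and *RN7SL2* (1.03), and without DCIS.COM pLOC-empty replicate 1 (1.09) or pLOC-*MALINC1* replicate 2 (1.01). By adjusted p alone, the *DKK1* difference between the responses no longer passed without the mean-variance trend (0.0153). The *WNT5A* difference between the responses passed with 1 CPM added (0.000758), and *WNT7B* in DCIS.COM passed with quantile scaling (0.00463). On leaving out a library, *TCF7L1* in DCIS.COM ranged from 0.36 to 1.01 and *SFRP1* from 0.045 to 0.15. At any fold, 5485 genes passed in MCF10A (4 of the Wnt genes), 4592 in DCIS.COM, 4972 for the difference (3 of the Wnt genes) and 10230 between the lines. Scaling without *RN7SL1* and *RN7SL2* moved the median of all genes between the lines from 0.031 to 0.14. The replicate numbers share only a number: deviations of same-numbered libraries correlated between -0.128 and 0.113. With a replicate block, 759 and 634 genes were called in MCF10A and DCIS.COM, and no member's call changed. Chosen after seeing the data, a block with the MCF10A pLOC-*MALINC1* numbers crossed called 769 and 644. On the recovered reads, voom called 752 and 634. With each line fitted alone by limma, 578 and 529 genes were called in MCF10A and DCIS.COM. In that fit the DCIS.COM responses of *WNT7A* and *WNT5A* passed narrowly (adjusted p = 0.00809 and 0.00970). The DCIS.COM levels of *WNT7A* and *WNT5A* rest on 10 to 48 reads, which limits their precision.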
